A study of Homo sapiens with 2 samples.

Results

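MET, AXL, FGFR1, FGFR2, FGFR3, PDGFRB, DDR1, EPHA2, IGF1R and INSR are receptor tyrosine kinases outside the ERBB family (the family of the EGF receptor). They were taken by symbol, as the rows whose Ensembl identifier carries these names in GENCODE release 44, and all 10 had a row among the 58735 genes of both count tables. The choice used no measured value, but the names were picked with earlier results of these data known. The tables come from MCF10a-Snail-ER cells, a human mammary epithelial line that is not tumorigenic and that stably carries the repressor Snail fused to the estrogen receptor, so that tamoxifen switches the fusion on. All cells had 100 nM tamoxifen for 1 day, which starts an epithelial-to-mesenchymal transition (EMT), and grew in medium with 5% horse serum, 20 ng/ml EGF, 10 µg/ml insulin, 0.5 µg/ml hydrocortisone and 100 ng/ml cholera toxin. Polyadenylated RNA of these cells, described by the series as matched, gave 1 Nanopore direct RNA library, in which native RNA strands are read whole, and 1 Illumina library (TruSeq stranded mRNA), whose short reads come from fragmented RNA copied into cDNA and amplified. No untreated library was analysed here, so the values below show how these receptors stood in induced cells and how the 2 libraries differed, not what the transition did to them. Whether the line is a clone is not given in the labels.

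A receptor tyrosine kinase spans the cell membrane once, binds a ligand outside the cell and phosphorylates itself and its partners on tyrosine inside it. Adaptors such as GRB2, SHC1 and GAB1 then carry the signal to the RAS, PI3 kinase and PLCG1 routes, and ubiquitin ligases, phosphatases and Sprouty proteins turn it down. MET and AXL are known for their part in scattering and invasion of epithelial cells, EPHA2 and DDR1 for contacts with neighbouring cells and with collagen, the FGF receptors for splice forms that differ between epithelium and mesenchyme, PDGFRB for mesenchymal cells, and IGF1R and INSR for growth and metabolism.

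Sequencing depth was far lower by Nanopore, with 403235 counts, than by Illumina, with 191741714. A count was therefore worth 2.48 counts per 1000000 (CPM) in the first and 0.00522 CPM in the second, and the smallest level taken as measurable, 3 counts, was 7.44 CPM and 0.0156 CPM. Each platform had 1 library, so no value has a replicate, and every interval and test covers counting error only. All 7 basal mammary markers, KRT5, KRT14 and TP63 among them, were found in both libraries. They summed to 9201 CPM by Nanopore and 10397 CPM by Illumina, most of it S100A2 (5989 and 7687 CPM). TP63 had 12.4 and 33.2 CPM. The 7 luminal markers summed to 682 CPM by Nanopore and 549 CPM by Illumina, most of it KRT8 and KRT18. GATA3 had 4 Nanopore counts and 12.9 CPM by Illumina, and KRT19 had 1 and 0.459 CPM. FOXA1 had no Nanopore count and 4.97 CPM by Illumina, and PGR and ELF5 were listed at 0 in both libraries. Markers of other cell types were low. Those of fibroblasts summed to 24.8 CPM by Nanopore and 33.1 CPM by Illumina, most of it DCN, those of endothelium to 0 and 5.16 CPM, most of it PECAM1, and those of immune cells to 12.4 and 11.1 CPM, most of it CD14. PDGFRA, COL3A1, CDH5, VWF, PTPRC and CD3E had no Nanopore count and at most 0.229 CPM by Illumina.

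The first question was which of these receptors the induced cells carried, and at what level. Short-read counts grow with transcript length, so levels of different genes were compared only per length, as Illumina counts divided by union exonic length and scaled to 1000000 (TPM). On that scale AXL stood highest at 81.4 TPM (95% Wilson interval 80.5 to 82.3), followed by EPHA2 at 45.4 (44.6 to 46.2), MET at 34.3 (33.8 to 34.8), DDR1 at 15.8 (15.5 to 16.1) and IGF1R at 10.06 (9.86 to 10.3). INSR followed at 5.19 TPM (5.03 to 5.35), FGFR1 at 1.84 (1.76 to 1.92), FGFR3 at 1.19 (1.08 to 1.31) and FGFR2 at 0.952 (0.901 to 1.01), and PDGFRB came last at 0.0535 (0.0367 to 0.0778). No 2 neighbours in this order had overlapping intervals, though these intervals leave out the error of the lengths. AXL, EPHA2 and MET together made up most of the summed TPM of the 10 genes, with 41.5%, 23.1% and 17.5%, and the 3 FGF receptors and PDGFRB together were a small remainder. With the longest coding transcript as length AXL, EPHA2 and MET kept ranks 1 to 3 among the 10 genes, at 58.2, 31.3 and 23.7 TPM. DDR1 came close to MET at 22.9. With the mean transcript length DDR1 moved to 51.8 TPM and IGF1R to 30.6, near MET at 29.9. FGFR2 stood above FGFR3 by both of these lengths, at 1.69 against 0.880 TPM by longest coding and 2.70 against 1.06 by mean transcript. The places of DDR1, IGF1R, MET, FGFR2 and FGFR3 thus depended on the length used.

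**Figure D1:**
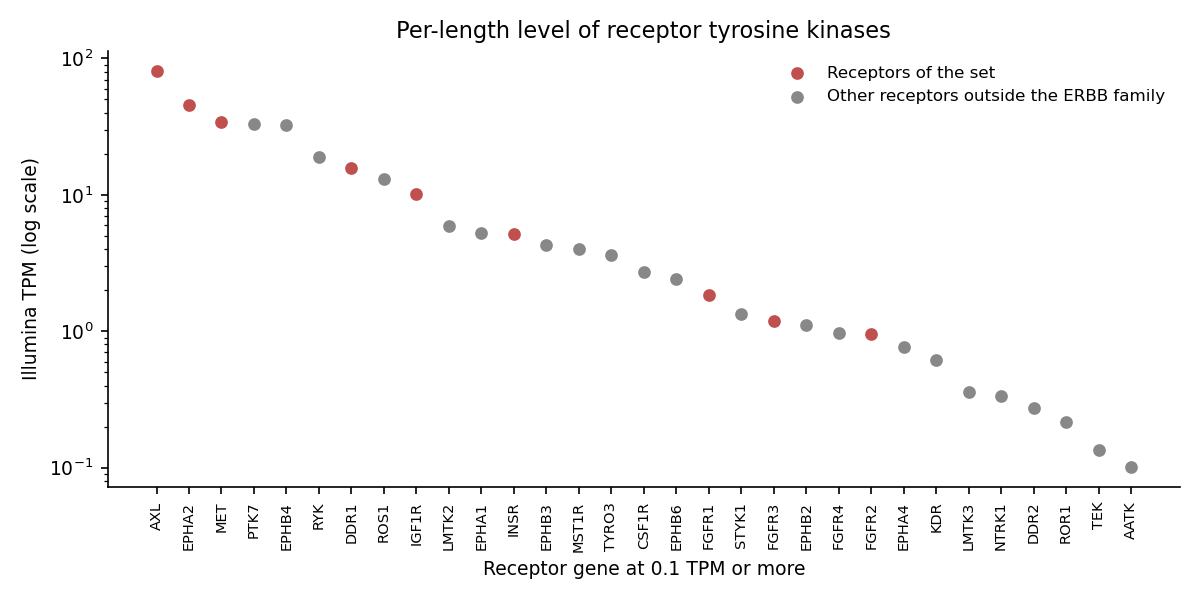
Illumina level per length (TPM by union exonic length, log scale) of the 31 receptor tyrosine kinases outside the ERBB family at 0.1 TPM or more, each point 1 gene in 1 library. AXL, EPHA2 and MET take the first 3 places, FGFR1, FGFR3 and FGFR2 lie between 0.952 and 1.84 TPM, and PDGFRB at 0.0535 TPM is below the range shown.

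All 54 receptor tyrosine kinases outside the ERBB family were then ranked by TPM on union exonic length. AXL, EPHA2 and MET held ranks 1, 2 and 3, DDR1 rank 7, IGF1R rank 9 and INSR rank 12. FGFR1 held rank 18, FGFR3 rank 20, FGFR2 rank 23 and PDGFRB rank 34. Among protein-coding genes with an Illumina count, AXL exceeded 91.3% in TPM and FGFR2 exceeded 24.3%. The most abundant receptors outside the set were PTK7, a pseudokinase of planar cell polarity, at 33.0 TPM, EPHB4, a receptor for ephrin-B2, at 32.4 TPM and RYK, a Wnt receptor, at 18.9 TPM. The places below AXL depended on the length used. By longest coding transcript PTK7 (46.2 TPM), RYK (33.3) and EPHB4 (31.5) stood above EPHA2 (31.3) and MET (23.7). By mean transcript length PTK7 (55.9), EPHB4 (40.8) and RYK (37.5) stood above MET (29.9). In Nanopore counts EPHA1 (75) and PTK7 (23) stood above AXL (20), and CSF1R (20) stood level with it. By Illumina EPHA1 had 5.24 TPM and CSF1R 2.72 TPM. Their Nanopore counts are uncertain, since ZYX and RPL7P1, which overlap them on the opposite strand, had 70 and 17. Of the other 44 receptors, 13 were listed at 0 in both libraries, among them KIT, RET and FLT3.

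**Figure D2:**
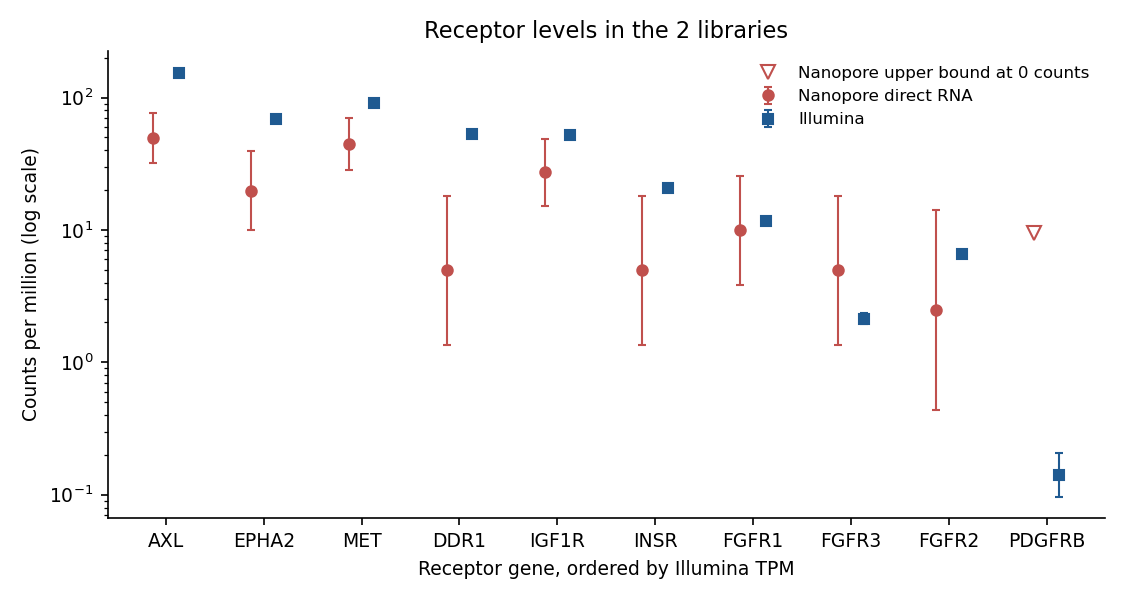
Level of the 10 receptors in CPM (log scale) in the Nanopore (circles) and Illumina (squares) library, with 95% Wilson intervals of the counts. The open triangle is the upper bound for PDGFRB, which had no Nanopore count, and AXL is highest in both libraries.

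The second question was how far the 2 libraries gave the same level for each receptor. The Nanopore library held 68 counts of the 10 genes in all. The Illumina share of the same genes in CPM, carried over to the Nanopore total, comes to 186 counts, and their share in TPM to 79.1 counts. Each gene whose 2 levels averaged 5 CPM or more, 12414 in all, was tested with a two-sided exact binomial test on its 2 counts, given the library totals, and Benjamini-Hochberg adjustment ran over all of them (per length, over the 12350 with an annotated length). What is tested is the difference of this pair of libraries, which says nothing of how either method varies. Of the 10 receptors 7 could be tested, and FGFR2, FGFR3 and PDGFRB fell below the minimum. In CPM 5 of the 7 were higher by Illumina (AXL, MET, EPHA2, DDR1 and INSR), against 27.2% of all tested genes, and none was higher by Nanopore, against 20.2%. After division of the Illumina counts by union exonic length this became 1 of 7 higher by Illumina (EPHA2), against 10.6% of all tested genes, and 2 of 7 higher by Nanopore (FGFR1 and IGF1R), against 31.2%. None of the 7 was at least 4-fold higher by Nanopore on either scale, against 12.9% of all tested genes in CPM and 15.1% per length, and per length none was 4-fold higher by Illumina, against 3.09%. The median log2 ratio of all tested genes moved likewise, from −0.42 in CPM to 0.42 per length, while that of the 7 receptors moved from −1.62 to −0.05. The ratio is that of Nanopore CPM plus 1 over the Illumina level plus 1, which understates differences of rare genes.

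**Figure D3:**
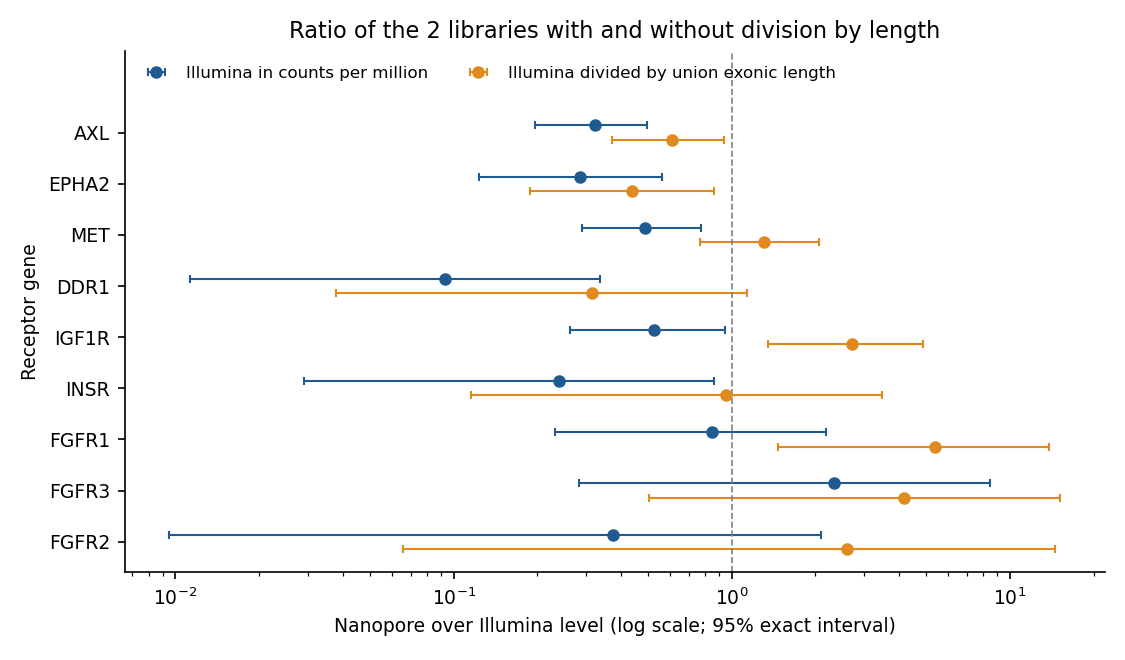
Ratio of the Nanopore level over the Illumina level (log scale) for the 9 receptors with a Nanopore count, with 95% exact intervals of the counts, in CPM and with the Illumina counts divided by union exonic length. In CPM the points of 8 of 9 receptors lie below 1 and that of FGFR3 above it, and after division by length those of AXL, EPHA2, DDR1 and INSR lie below 1.

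AXL (ENSG00000167601, chromosome 19, 41219223 to 41261766, plus strand, hg38) encodes the receptor for GAS6, of the TAM family. It had 20 Nanopore counts, or 49.6 CPM (95% Wilson interval 32.1 to 76.6), and 29580 Illumina counts, or 154 CPM (152.5 to 156.04). Both libraries put it first among the 10 genes, but its Nanopore level was 3.11-fold lower in CPM (95% exact interval 2.01 to 5.09). Its log2 ratio of −1.62 passed the exact binomial test (adjusted p-value 6.33e-09). Per union exonic length the Nanopore level was 1.64-fold lower (1.06 to 2.69), and the exact test no longer passed, with an adjusted p-value of 0.0535. A lncRNA gene on the opposite strand, ENSG00000269652, shares 67 exonic bases with AXL and had 1 Nanopore and 19 Illumina counts.

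MET (ENSG00000105976, chromosome 7, 116672196 to 116798377, plus strand) encodes the receptor for hepatocyte growth factor, HGF. It had 18 Nanopore counts, or 44.6 CPM (28.2 to 70.6), and 17520 Illumina counts, or 91.4 CPM (90.03 to 92.7). The gene overlaps no other annotated gene, and 0.353% of its 50-base words occur in another gene. In CPM the Nanopore level was 2.05-fold lower (1.29 to 3.45), and the exact binomial test passed (log2 ratio −1.02, adjusted p-value 0.00289). The direction turned after division by length, with a log2 ratio of 0.37 by union exonic length (exact binomial adjusted p-value 0.481) and 0.89 by longest coding transcript (0.0463). The Nanopore counts of AXL and MET stood at 1.11 to 1 (95% exact interval 0.558 to 2.23), while their TPM stood at 2.38 to 1, outside that interval, and their Illumina CPM at 1.69 to 1, inside it. MET stood above EPHA2 in Nanopore counts, at 2.25 to 1 (0.931 to 5.98), and below it in TPM, at 0.755 to 1, also outside the interval, while Illumina CPM gave 1.32 to 1.

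EPHA2 (ENSG00000142627, chromosome 1, 16124337 to 16156069, minus strand) encodes a receptor for ephrin-A ligands of neighbouring cells. It had 8 Nanopore counts, or 19.8 CPM (10.05 to 39.2), and 13310 Illumina counts, or 69.4 CPM (68.2 to 70.6). Its Nanopore level was 3.50-fold lower in CPM (1.78 to 8.11) and 2.29-fold lower per union exonic length (1.16 to 5.30). The exact binomial adjusted p-values were 7.83e-05 and 0.0302, and EPHA2 was the only receptor of the set called higher by Illumina on both scales, although division by longest coding transcript ended that call (0.386). EPHA2-AS1, a lncRNA gene on the opposite strand with 0 shared exonic bases, had 2 Nanopore and 18 Illumina counts. EPHA2 shares 50-base words with a single other gene, EPHB2, a receptor for ephrin-B ligands: 10 of its words occur there, in a run of 59 identical bases in coding exon 13. EPHB2 had 1 Nanopore and 983 Illumina counts, so its own counts were few beside those of EPHA2. The exons are shown because a short read inside the capitals, which mark the identical run, cannot be told apart between the genes, while a longer read can (hg38, EPHA2 at chr1:16132064-16132273 on the minus strand, EPHB2 exon 12 at chr1:22907953-22908168 on the plus strand).
EPHA2: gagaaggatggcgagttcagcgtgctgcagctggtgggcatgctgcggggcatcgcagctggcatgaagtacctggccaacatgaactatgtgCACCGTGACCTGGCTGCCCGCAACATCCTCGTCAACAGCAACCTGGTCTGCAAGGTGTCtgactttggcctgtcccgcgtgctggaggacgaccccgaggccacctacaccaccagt
EPHB2: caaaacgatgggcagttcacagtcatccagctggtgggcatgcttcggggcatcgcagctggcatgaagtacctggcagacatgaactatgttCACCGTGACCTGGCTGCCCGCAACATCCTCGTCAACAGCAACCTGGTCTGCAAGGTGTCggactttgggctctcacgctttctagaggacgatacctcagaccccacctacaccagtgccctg

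DDR1 (ENSG00000204580, chromosome 6, 30876421 to 30900156, plus strand) encodes a receptor for collagens. It had 2 Nanopore counts, or 4.96 CPM (1.36 to 18.1), and 10227 Illumina counts, or 53.3 CPM (52.3 to 54.4). With 21.5 Nanopore counts expected from its Illumina CPM, it stood 10.8-fold lower by Nanopore (95% exact interval 2.98 to 88.8). With 1 CPM added to both levels DDR1 was the only receptor of the set called at least 4-fold higher by Illumina, as were 7.31% of all tested genes (log2 ratio −3.19, exact binomial adjusted p-value 1.32e-06). With 0.1 CPM added INSR was so called as well. The Nanopore value of 2 counts lies below the level of 3 counts taken as measurable, so the fold is known only within its interval. Genes of its class by union exonic length, 8628 bases or more, had a median log2 ratio of −0.91, and DDR1 exceeded 3.12% of them. Its longest coding transcript has 4148 bases. Per union exonic length 6.39 counts would be expected, and the difference no longer passed the exact test (log2 ratio −1.50, adjusted p-value 0.179), but it passed by mean transcript length (−3.15, 2.45e-06) and by longest coding transcript (−2.00, 0.0279).

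DDR1 lies in the major histocompatibility complex, for which hg38 carries alternate contigs, and it was the only 1 of the 10 receptors with a copy there. Its longest transcript aligned over at least 80% of its length to 4 alternate contigs, with at most 0.14% divergence. All 17 coding exons had an identical copy on between 2 and 6 of the 16 alternate contigs of chromosome 6, and 14 of them on 4 or more. The longest coding exon, exon 8 of 247 bases (hg38 chr6:30892296-30892542, plus strand), is shown whole as an example, since every base of it recurs on 4 alternate contigs, and no base is capitalised.
DDR1: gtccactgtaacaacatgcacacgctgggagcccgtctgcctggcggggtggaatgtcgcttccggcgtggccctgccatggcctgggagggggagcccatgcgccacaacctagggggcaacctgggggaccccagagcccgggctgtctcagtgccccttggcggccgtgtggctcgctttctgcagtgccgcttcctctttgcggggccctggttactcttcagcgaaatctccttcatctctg

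Nanopore counts of the genes around DDR1 were low in the same way. Of 16 genes of the region fixed as a list (HLA-E to VARS2, some of them known from earlier results to lack Nanopore counts), 14 could be tested. All 14 were higher by Illumina in CPM in the exact test, against 27.2% of all tested genes. Of the 14, 12 were at least 4-fold higher, against 7.31% of all tested genes. TUBB, a β-tubulin, had 30 Nanopore counts where 957 were expected from its Illumina CPM. IER3, an immediate early gene, had 6 where 48.9 were expected, FLOT1, a lipid raft protein, 1 where 25.04 were, and VARS2, a mitochondrial valine tRNA ligase, 1 where 22.3 were. HLA-E, ABCF1, GNL1 and GTF2H4 had none, where 54.2, 53.6, 42.5 and 13.2 were expected. The 14 genes of the list with at least 20 Illumina CPM had 64 Nanopore counts in place of 1366, and 4 of them had none. Of all 7555 genes with at least 20 Illumina CPM 0.768% had none (2.16% from 10 CPM and 0.355% from 50 CPM). Because the list was fixed with such genes known, its counts describe the genes named and are no support of their own.

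Around DDR1, genes with and without such copies differed. Among 50 genes with at least 20 Illumina CPM within 1 Mb of the DDR1 start, all had a copy on an alternate contig, and they had 341 Nanopore counts in place of 2978. The 50 include DDR1 and the 14 abundant genes of the list above, with 64 counts in place of 1366. They thus repeat that list in part, as do the sets with a copy on chromosome 6 and in the genome below. HLA-B with 59 counts (27.8 expected) was the only gene of the 50 above its expected count, and HLA-C with 54 (55.4 expected) was close to it. Between 1 and 5 Mb away, 28 genes with a copy had 257 counts in place of 1720, and 23 genes without a copy had 2048 in place of 2199. RPL10A (553), RPS10-NUDT3 (450) and RPS10 (440) held most of these 2048 counts. Of the 23 genes 17 were below their expected count, with a median log2 ratio of −0.88. All 28 genes with a copy were below it, with a median of −3.95. On chromosome 6 as a whole the median log2 ratio was −3.43 for 80 genes with a copy and −0.57 for 283 genes without. In the whole genome, the 80 genes of chromosome 6 included, it was −2.02 for 221 genes with a copy and −0.70 for 7316 without. The 157 genes with copies on no more alternate contigs than DDR1 had a median of −1.62. All these sets are of genes with at least 20 Illumina CPM. A minimum on the Illumina level alone favours ratios below 0, for genes with and without a copy alike. Over all tested genes the median log2 ratio was −0.42. These distances were chosen after the values were seen, and how the authors' alignment treated reads with copies was not tested.

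**Figure D4:**
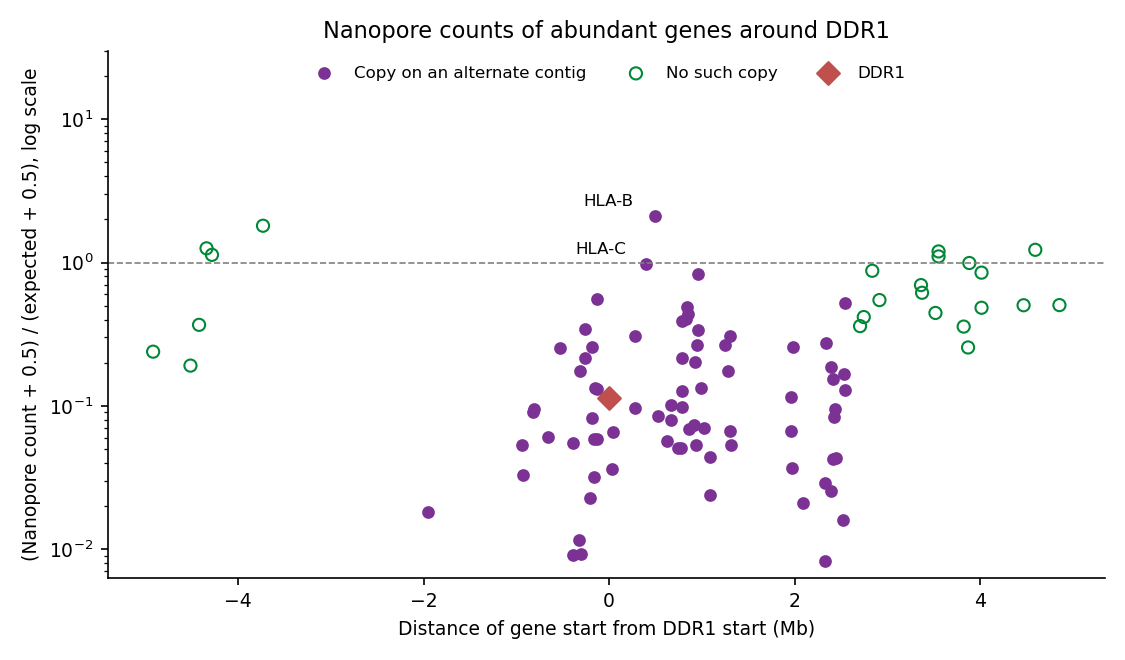
Nanopore count over the count expected from the Illumina CPM, 0.5 added to both (log scale), for 101 genes with at least 20 Illumina CPM by distance of their start from that of DDR1 in Mb. The 78 genes with an alternate-contig copy (filled) lie mostly far below 1, with HLA-B above it, and the 23 genes without one (open) lie around and below 1.

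IGF1R (ENSG00000140443, chromosome 15, 98648539 to 98964530, plus strand) and INSR (ENSG00000171105, chromosome 19, 7112255 to 7294414, minus strand) encode the receptors for insulin-like growth factors and for insulin, and are close relatives. IGF1R had 11 Nanopore counts, or 27.3 CPM (15.2 to 48.9), and 9927 Illumina counts, or 51.8 CPM (50.8 to 52.8). INSR had 2 Nanopore counts, or 4.96 CPM (1.36 to 18.1), and 3977 Illumina counts, or 20.7 CPM (20.1 to 21.4). IGF1R was thus higher than INSR in both libraries, by 5.50 to 1 in Nanopore counts (95% exact interval 1.20 to 51.1) and by 1.94 to 1 in TPM.

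The Nanopore level of IGF1R was 1.90-fold lower in CPM (1.06 to 3.80), which did not pass the exact test after adjustment (log2 ratio −0.90, adjusted p-value 0.0572) but did among genes averaging 20 CPM or more (0.0483). Per union exonic length it was higher by Nanopore, with a log2 ratio of 1.35 and an exact binomial adjusted p-value of 0.0174. The count itself is uncertain: SYNM-AS1, a lncRNA gene on the opposite strand whose body (chromosome 15, 98954149 to 99105824) covers the end of IGF1R, had the same number of Nanopore counts, 11, and no Illumina count, although the annotation gives the pair 0 shared exonic bases. INSR was 4.18-fold lower by Nanopore in CPM (1.16 to 34.5), with a log2 ratio of −1.87 and an exact binomial adjusted p-value of 0.0446. That call was lost with TMM scaling (0.0648) and with every change of the length or of the minimum that was tried and left it in the test, and it rests on 2 counts, below the 3 taken as measurable.

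IGF1R and INSR have only short stretches of sequence in common. The longest run of identical bases between coding exons of the pair was 23, in exon 2 of each, and no 50-base word of IGF1R occurs in another gene. The run is shown in capitals with 50 bases on either side (hg38, IGF1R at chr15:98707715-98707837 on the plus strand, INSR at chr19:7267618-7267740 on the minus strand), so that the many differences around it can be seen.
IGF1R: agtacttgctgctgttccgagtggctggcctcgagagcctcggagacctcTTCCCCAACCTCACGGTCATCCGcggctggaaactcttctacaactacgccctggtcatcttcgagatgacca
INSR: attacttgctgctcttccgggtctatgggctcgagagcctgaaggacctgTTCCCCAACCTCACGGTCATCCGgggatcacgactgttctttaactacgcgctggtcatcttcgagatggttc

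The FGF receptors were rare. FGFR1 (ENSG00000077782, chromosome 8, 38400215 to 38468834, minus strand) had 4 Nanopore counts, or 9.92 CPM (3.86 to 25.5), and 2240 Illumina counts, or 11.7 CPM (11.2 to 12.2). FGFR2 (ENSG00000066468, chromosome 10, 121478332 to 121598458, minus strand) had 1 Nanopore count, or 2.48 CPM (0.438 to 14.05), and 1268 Illumina counts, or 6.61 CPM (6.26 to 6.99). FGFR3 (ENSG00000068078, chromosome 4, 1793293 to 1808872, plus strand) had 2 Nanopore counts, or 4.96 CPM (1.36 to 18.1), and 408 Illumina counts, or 2.13 CPM (1.93 to 2.34). The Illumina library ordered them FGFR1, FGFR2, FGFR3 in CPM and by the other 2 lengths, and FGFR1, FGFR3, FGFR2 in TPM by union exonic length. The Nanopore intervals of the 3 genes overlapped.

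Only FGFR1 was abundant enough for the test. Its log2 ratio in CPM was −0.22 (exact binomial adjusted p-value 1), and the ratio of the levels, 0.849, had an exact interval of 0.231 to 2.18. Per union exonic length, 17201 bases, FGFR1 was called higher by Nanopore (log2 ratio 1.94, exact binomial adjusted p-value 0.0353), a call that mean transcript length did not give (0.66, 0.605). All 4 Nanopore counts are uncertain, since LETM2, which lies on the opposite strand and shares 138 exonic bases with FGFR1, also had 4, and so did ENSG00000272159, a lncRNA gene within both. In the Illumina library LETM2 had 3466 counts and ENSG00000272159, which shares 0 exonic bases with FGFR1, had 639. ENSG00000255201, a lncRNA gene on the opposite strand, shares 387 exonic bases with FGFR1 and had 0 Nanopore and 14 Illumina counts. For FGFR2 the ratio of the levels in CPM was 0.375 (95% exact interval 0.00949 to 2.09) and for FGFR3 it was 2.33 (0.281 to 8.47), and the depth did not allow a difference to be seen for either.

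FGFR2 and FGFR3 share at most 23 identical bases in a run, in coding exon 12 of each, and the exons are shown with that run in capitals because it is the closest that these 2 genes come (hg38, FGFR2 at chr10:121498495-121498605 on the minus strand, FGFR3 at chr4:1805559-1805669 on the plus strand).
FGFR2: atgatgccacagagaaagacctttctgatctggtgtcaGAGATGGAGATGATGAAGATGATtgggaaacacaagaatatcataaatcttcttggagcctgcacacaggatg
FGFR3: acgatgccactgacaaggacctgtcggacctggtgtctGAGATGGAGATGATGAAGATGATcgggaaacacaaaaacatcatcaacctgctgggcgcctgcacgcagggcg

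PDGFRB (ENSG00000113721, chromosome 5, 150113839 to 150155872, minus strand), the receptor for PDGF-B and PDGF-D of fibroblasts and pericytes, had no Nanopore count, which at 3 counts allows up to 7.44 CPM (upper 95% Wilson bound 9.53 CPM). By Illumina it had 27 counts, or 0.141 CPM (0.0968 to 0.205), far under what the Nanopore depth can show. PDGFRA, its partner among fibroblast markers, had no Nanopore count and 41 Illumina counts.

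**Figure D5:**
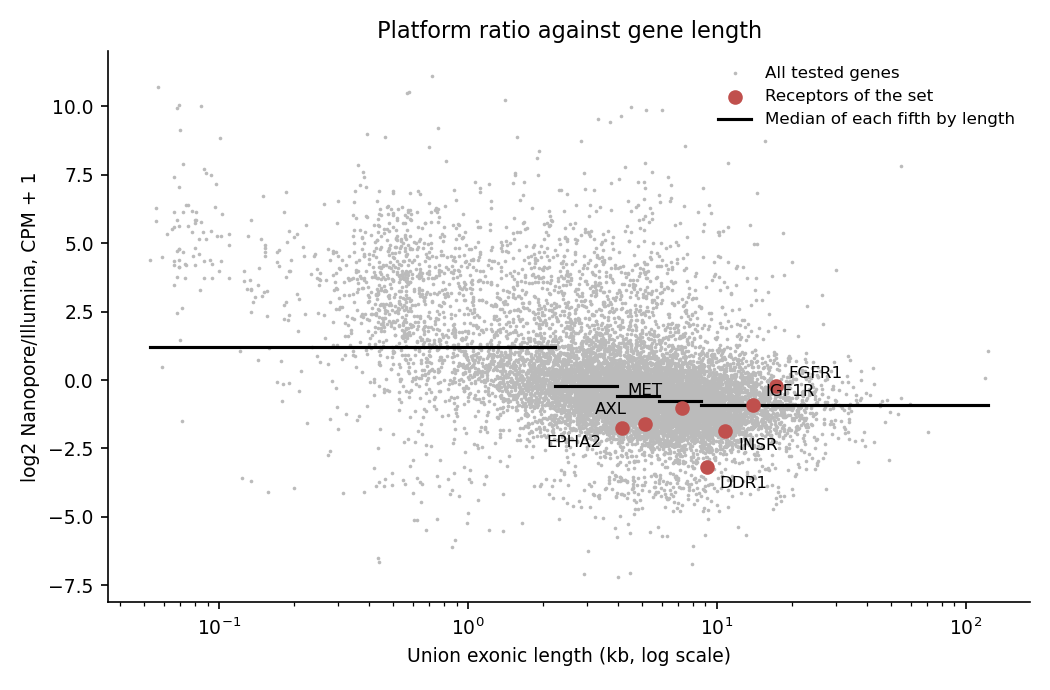
Log2 ratio of Nanopore over Illumina (CPM plus 1) against union exonic length in kb (log scale) for the tested genes with an annotated length (grey), with the medians of 5 classes of about equal size by length (bars) and the 7 tested receptors (red). The medians fall from 1.21 in the shortest class to −0.91 in the longest, and of the 7 receptors DDR1 at −3.19 lies farthest below the bar of its class.

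Against genes of similar union exonic length the receptors did not all sit alike. The 12350 tested genes with an annotated length were split by it into 5 classes of about equal size. In the class between 3967 and 5832 bases the median log2 ratio was −0.58, and AXL exceeded 14.5% and EPHA2 12.2% of its genes. MET, in the class from 5833 to 8626 bases, exceeded 40.4%, and IGF1R, INSR and FGFR1, in the longest class, exceeded 50.3%, 15.9% and 76.3%. These places are a description of 2 libraries and carry no test. The classes rest on union exonic length, and the longest coding transcript of FGFR1, for example, has 5901 bases.

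Ligands were read from a list of 24 genes, of which 11 had a Nanopore and 20 an Illumina count. Of the 8 that could be tested 1 was higher by Nanopore and 2 by Illumina in CPM, near the 20.2% and 27.2% of all tested genes, with a median log2 ratio of −0.76, and per union exonic length 4 were higher by Nanopore and none by Illumina, against 31.2% and 10.6%. The highest per length were EFNA1 and EFNA4, ephrins that bind EPHA2, at 31.3 and 20.5 TPM, and COL4A2, a basement membrane collagen chain, at 20.0 TPM. EFNA1 had 22 Nanopore counts, or 54.6 CPM, against 25.0 CPM by Illumina. It was higher by Nanopore on both scales (log2 ratio 1.10 in CPM and 0.78 per length). In CPM it exceeded 48.4% of the genes of the shortest length class, whose median log2 ratio was 1.21.

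The other ligands named here were chosen for their receptor after their values were seen. GAS6, the ligand of AXL, had 9 Nanopore and 7890 Illumina counts, or 18.5 TPM, and PROS1, the related protein S, had 5 and 3894, or 10.4 TPM. FGF2 had 11 Nanopore and 4279 Illumina counts, or 8.89 TPM, whereas FGF9 and FGF10 were listed at 0 in both. HGF, the ligand of MET, had no Nanopore count and 25 by Illumina, and IGF1 had 0 and 11. INS and IGF2 were listed at 0 in both libraries, in cells whose medium held 10 µg/ml insulin. RNA of the ligands of AXL and EPHA2 was thus present in these cells, while HGF and IGF1 stayed under what the Nanopore depth can show.

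Coreceptors, receptor proteases, HGF inhibitors and IGF-binding proteins formed a list of 23 genes. Of 16 tested, 10 were higher by Illumina and 1 by Nanopore in CPM, against 27.2% and 20.2% of all tested genes. The median log2 ratio of the 16 was −1.05. Per union exonic length 4 and 7 were, against 10.6% and 31.2%. The highest per length were SDC4 and SDC1, heparan sulfate proteoglycans that present FGFs, at 257 and 178 TPM, and IGFBP6, which binds IGF2, at 134 TPM. IGFBP7 was the gene at least 4-fold higher by Nanopore in CPM, as were 12.9% of all tested genes, with 62 counts where 14.8 were expected (log2 ratio 2.03). In the shortest length class, where it lies, IGFBP7 exceeded 60.2% of genes. The genes at least 4-fold higher by Illumina in CPM, as were 7.31% of all tested genes, were ST14 and NRP1. ST14, a protease known to activate HGF, had 2 counts where 12.7 were expected, and NRP1, a coreceptor, had 4 where 24.6 were expected. Neither call held per union exonic length (exact binomial adjusted p-values 0.0505 and 0.791).

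Adaptors and effectors formed a list of 23 genes, 22 of which had a Nanopore count. Of 21 tested, 11 were higher by Illumina and none by Nanopore in CPM, against 27.2% and 20.2% of all tested genes. The median log2 ratio of the 21 was −0.88. Per union exonic length 2 and 3 were, against 10.6% and 31.2%. SHC1, the adaptor that links receptors to GRB2, stood highest with 120 Nanopore counts and 433 TPM, followed by GRB2 at 58.1 TPM and CRK at 51.9 TPM. Those at least 4-fold higher by Illumina in CPM, as were 7.31% of all tested genes, were CRKL, SRC, GRB10 and SOS2. Their Nanopore counts were 6, 5, 2 and 1 where 31.8, 22.03, 17.9 and 9.89 were expected. After division by union exonic length only CRKL of these 4 stayed called.

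Negative regulators formed a list of 17 genes. Of 14 tested, 8 were higher by Illumina and none by Nanopore in CPM (median log2 ratio −1.42), and 1 and 2 per union exonic length. PTPN1, a phosphatase of INSR and IGF1R, stood highest at 70.9 TPM, followed by DUSP6 and DUSP4, phosphatases of MAP kinases that are known targets of the route, at 37.0 and 32.5 TPM. SPRY4, SPRY2, INPPL1 and PTPRK were at least 4-fold higher by Illumina in CPM, as were 7.31% of all tested genes. Their Nanopore counts were 6, 2, 4 and 1 where 31.6, 10.5, 19.8 and 13.5 were expected. Per length only SPRY2 of these 4 stayed called. Of all tested genes 27.2% were higher by Illumina and 20.2% by Nanopore in CPM, and 10.6% and 31.2% per length.

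Among the other 44 receptors, 10 could be tested, and in CPM 4 were higher by Illumina and 2 by Nanopore (27.2% and 20.2% of all tested genes), and per union exonic length none and 4 (10.6% and 31.2%). EPHA1, a receptor for ephrin-A ligands, had 75 Nanopore counts where 3.67 were expected (log2 ratio 4.21, exact binomial adjusted p-value 7.91e-67). ZYX, which encodes zyxin of focal adhesions, overlaps EPHA1 on the opposite strand over 82 exonic bases and had 70 Nanopore counts and 33334 Illumina counts, against 1743 Illumina counts of EPHA1. CSF1R, the macrophage colony-stimulating factor receptor, had 20 Nanopore counts where 2.09 were expected (log2 ratio 3.03, exact binomial adjusted p-value 2.89e-12), and RPL7P1, a ribosomal protein pseudogene within CSF1R on the opposite strand with 0 shared exonic bases, had 17. LMTK2 had 1 where 8.06 were expected (log2 ratio −2.59, exact binomial adjusted p-value 0.0147), a call that was lost per union exonic length (−0.99, 0.786). The macrophage marker CD14 had 5 Nanopore counts and the pan-leukocyte marker PTPRC had none. Whether the same reads were counted for both genes of such a pair was not tested.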

How the data were processed

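Polyadenylated RNA of MCF10a-Snail-ER cells was sequenced in 1 Nanopore direct RNA and 1 Illumina library, and each library was its own group by its title. The authors deposited whole-number counts per Ensembl gene, without normalization. The submitters' processing notes name minimap2 2.11-r797, HISAT2 2.1.0, featureCounts and hg38, without their roles or options. The annotation, the strand setting, the rules for reads with more than 1 gene or place, and any correction of the Nanopore reads are not given in the sources used here. The name of the Nanopore column has a suffix that no label explains.

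GENCODE release 44 (hg38) gave symbols, coordinates and lengths and held 58207 of the 58735 identifiers. Nanopore and Illumina counts were scaled by the library totals. Intervals are 95% Wilson for levels and 95% exact (Clopper-Pearson) for ratios, and 3 counts were the floor. Amplified reads are not independent molecules, so intervals cover counting error only. With 1 library per platform no dispersion can be estimated, so a two-sided exact conditional binomial test was run on all genes averaging 5 CPM or more (Python 3.11.15, scipy 1.17.1), adjusted by Benjamini-Hochberg over 12414 genes (12350 per length), and called at an adjusted p-value under 0.05, with or without a ratio of at least 4-fold (pseudocount 1 CPM). The test was also run on simulated counts that held counting error and set fold changes only. Length and platform effects were left out, so that run does not show how the test behaves on these libraries. Expected Nanopore counts are the Illumina CPM or TPM times the Nanopore total.

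Copies on alternate contigs were longest transcripts aligned over at least 80% with at most 5% divergence (minimap2 2.31, spliced mode). Sequences are hg38 reference, not reads. The members and lists were chosen with earlier results of these data known. From each other list, genes at least 4-fold apart and the 3 highest in TPM are named. Alternatives were TMM (edgeR 4.0.16) and median-ratio scaling, other minimum levels and pseudocounts, 3 lengths, genes without overlap, and genes without mitochondrial ones. A fit without the genes copied on alternate contigs was added after the data were seen.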

Additional observations from a re-analysis of the deposited data

How the results depend on the processing

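The number of receptors higher by Illumina in CPM, 5 of 7, was 4 or 5 with other scalings, minimum levels and pseudocounts (at a minimum of 20 CPM 5 of 5, with IGF1R called and INSR and FGFR1 not tested), and became 1 of 7 after division by union exonic length, 2 by mean transcript length, 1 by longest coding transcript, and 1 of 2 among genes that overlap no other gene. Of all tested genes 27.2% were higher by Illumina in the main comparison, and 10.5% (no minimum) to 37.6% (20 CPM) with other scalings and minimum levels. By union exonic, mean transcript and longest coding length 10.6%, 15.8% and 10.3% were, and 31.3% among genes without overlap. The number of receptors higher by Nanopore went from 0 to 2 by union exonic and by longest coding length. The share of all tested genes went from 20.2% to 31.2% and 30.3%. The number of receptors at least 4-fold higher by Illumina, 1 (DDR1), became 2 with a pseudocount of 0.1 CPM, and 0 by union exonic length, among genes without overlap, and without the genes copied on alternate contigs, where DDR1 is itself left out. Of all tested genes 7.31% were so called in the main comparison and 3.09% by union exonic length. Log2 ratios that turned were those of MET (0.37 by union exonic, 0.56 by mean transcript and 0.89 by longest coding length), FGFR1 (1.94, 0.66 and 1.27), IGF1R (1.35 by union exonic and 1.73 by longest coding length) and INSR (0.28 by longest coding length). The ratios of AXL, DDR1 and EPHA2 stayed below 0 in every setting that tested them, from −1.64 to −0.23, −3.40 to −1.50 and −1.80 to −0.63. Over all settings the exact adjusted p-value ran from 4.96e-09 to 0.728 for AXL, 1.03e-06 to 0.179 for DDR1, 6.15e-05 to 0.386 for EPHA2, 0.00229 to 0.481 for MET, 0.0446 to 1 for INSR, 0.00232 to 0.961 for IGF1R and 0.0353 to 1 for FGFR1. Per union exonic length the other lists moved as well: other receptors higher by Illumina and Nanopore from 4 and 2 to 0 and 4, ligands from 2 and 1 to 0 and 4, coreceptors and processing from 10 and 1 to 4 and 7, adaptors from 11 and 0 to 2 and 3, and negative regulators from 8 and 0 to 1 and 2. All tested genes moved from 27.2% and 20.2% to 10.6% and 31.2%. The share of abundant genes without a Nanopore count, 0.768%, became 2.16% from 10 Illumina CPM and 0.355% from 50. With mean transcript length 5 of the 10 receptors kept their rank by TPM. The cause of these shifts was not tested beyond the change of length or gene set itself. No paired analysis was possible because each platform has 1 library and the labels give no replicate numbers. At the Nanopore depth a level under 7.44 CPM, or 3 counts, lies below the floor, which limits FGFR2, FGFR3 and PDGFRB and also the Nanopore values of DDR1 and INSR, at 2 counts each, and every ratio drawn from them.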
